A study of Mus musculus with 9 samples.

Results

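Kidneys of 96 week old and 14 week old mice were compared for the genes of the cytosolic ribosome. The members were all genes named Rpl or Rps with a number (and a final a, l or x), together with Rplp0, Rplp1, Rplp2 and Rpsa, without the Rps6k kinases and without names of pseudogenes. A gene entered if it had a probe set that carried its symbol alone, and its brightest probe set stood for it. This gave 59 of the 19938 genes measured, 30 of the large subunit, 20 of the small subunit, 3 of the stalk and 6 paralogs or retrogenes. All mice were female and wild type on a mixed FVB/C57BL6 background, so that age was the only difference between the groups that the labels give. Total RNA of the whole kidney, perfused with cold PBS and snap frozen, was hybridised to Affymetrix Mouse Gene 1.0 ST arrays, with 5 kidneys at 96 weeks and 4 at 14 weeks. The values are log2 expression values that the authors made with the robust multi-array average (RMA), so that a difference of 1 is a doubling. Quantile normalization scales the arrays to each other, so that a difference is relative to the other genes of the same kidney. The deposited arrays were close but not identical in scale, with medians over probe sets between 6.22 and 6.29 and highest values between 13.88 and 14.02.

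Most ribosomal proteins join ribosomal RNA in the nucleolus to form the small subunit, which reads the mRNA, and the large subunit, which joins amino acids. Their mRNAs are among the most abundant of any cell and are short, and in vertebrates they begin with a run of C and T letters, the terminal oligopyrimidine (TOP) motif, through which mTORC1 and Larp1 control their translation. The kidney is a tissue of many cell types, above all proximal tubule cells, and in whole kidney RNA fewer cells of a type and less RNA per cell cannot be told apart.

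Most ribosomal protein genes had higher mRNA levels in 96 week old than in 14 week old kidneys, and none was lower. Of the 59 genes, 37 were higher and 0 lower at an adjusted p under 0.05 in the limma fit (62.7%), against 4.31% of all genes higher and 2.4% lower (6.72% in either direction). At an unadjusted p under 0.05, 48 were higher and 1 was lower, against 13.3% of all genes higher and 15.3% lower. The log2 fold change was above 0 for 55 of 59 genes, against 43.4% of all genes, and its median was 0.33, against -0.03 for all genes. For 41 genes (69.5%) every 96 week old kidney lay above every 14 week old kidney, which held for 7.49% of all genes, and none of the 59 showed the opposite order, which held for 5.79% of all genes. The differences were small, and 6 genes passed 1.5-fold at an unadjusted p under 0.05 (1.28% of all genes did so upwards), namely Rplp1, Rpl8, Rps10, Rps14, Rpl36 and Rpl28. Replicate 4 at 14 weeks held the lowest of the 9 values for 49 of 59 genes. Without this array 23 genes were higher and 0 lower, against 1.88% of all genes higher, 3 passed 1.5-fold, against 0.938% of all genes, and the median was 0.29.

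**Figure D1:**
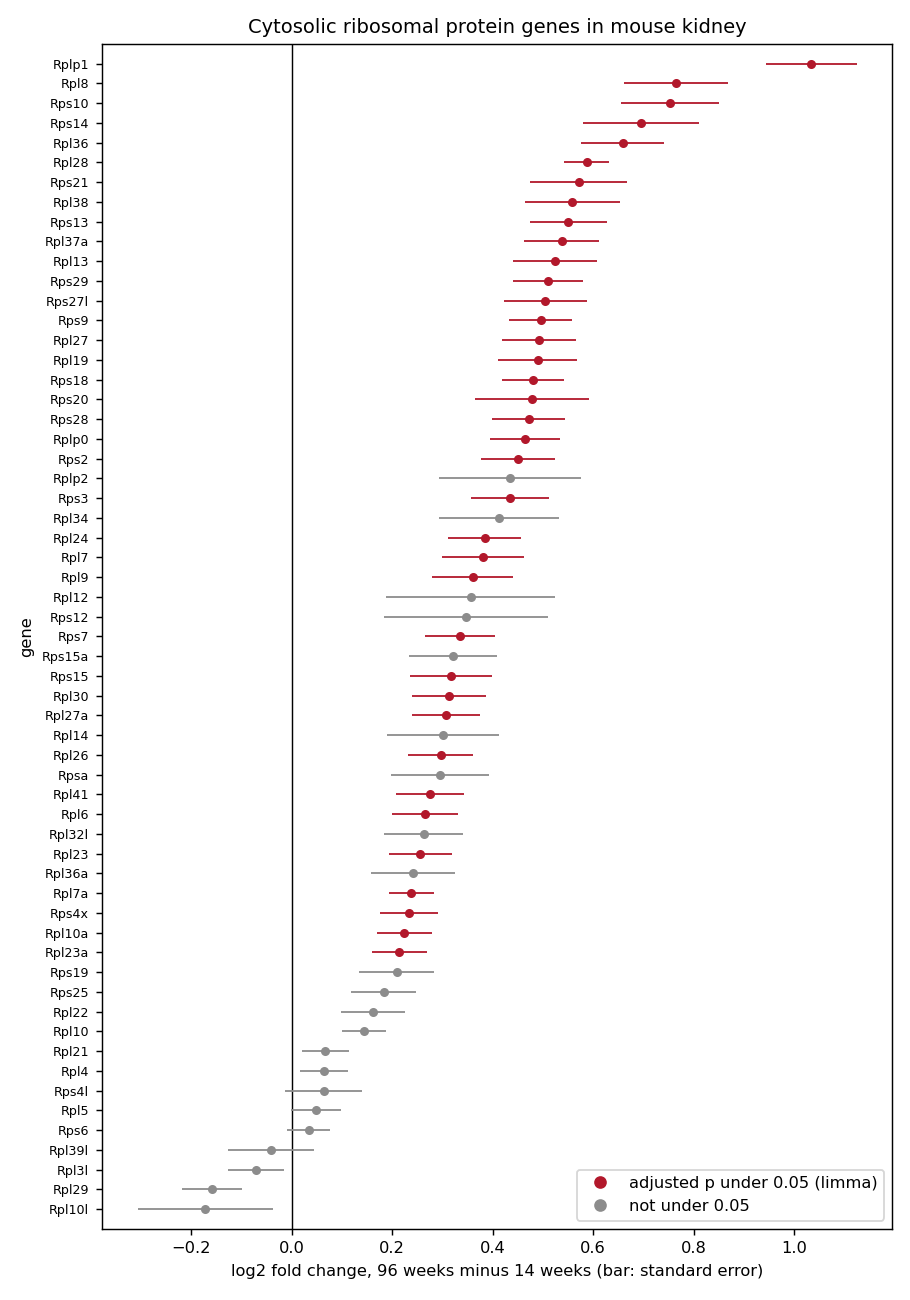
Log2 fold change, 96 minus 14 weeks, of the 59 ribosomal protein genes, with 1 standard error of the limma fit as a bar. Red points mark the 37 genes at an adjusted p under 0.05, and the values run between -0.17 for Rpl10l and 1.03 for Rplp1.

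The age difference was present in every kidney when the 59 genes were averaged. After each gene was centred on its mean over the 9 arrays, the mean over the 59 genes was 0.137, 0.096, 0.162, 0.262 and 0.111 in replicates 1 to 5 at 96 weeks. At 14 weeks it was -0.13, -0.134, -0.177 and -0.327 in replicates 1 to 4. The groups did not overlap. Replicate 4 was the highest of the 96 week old kidneys and held the highest value of all arrays for 34 genes, and replicate 4 was the lowest of the 14 week old kidneys. The mean was 0.154 ± 0.066 at 96 weeks and -0.192 ± 0.093 at 14 weeks (SD, n = 5 and 4).

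The stalk of the large subunit, which recruits the elongation factors, held the gene with the largest difference. Rplp1, an acidic stalk protein, had log2 values of 10.71, 10.75, 10.81, 10.95 and 10.62 at 96 weeks, against 9.78, 9.82, 9.86 and 9.48 at 14 weeks. Every 96 week old kidney lay above every 14 week old one, and the log2 fold change was 1.03 (standard error, SE, 0.090, limma adjusted p = 0.00082), a 2.05-fold difference. Rplp0, which anchors the stalk on ribosomal RNA, had values of 11.84, 11.70, 11.71, 11.74 and 11.55 at 96 weeks, against 11.31, 11.31, 11.27 and 11.09 at 14 weeks. It rose without overlap by 0.46 (SE 0.069, limma adjusted p = 0.0077). Rplp2, the partner of Rplp1, had values of 8.13, 8.04, 8.18, 8.41 and 8.12 at 96 weeks, against 8.23, 7.61, 7.67 and 7.46 at 14 weeks. Here replicate 1 at 14 weeks lay above 4 of the 96 week old kidneys. The log2 fold change of Rplp2 was 0.43 (SE 0.14, limma adjusted p = 0.087), and without that replicate it was 0.60 (limma adjusted p = 0.018).

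Of the 30 large subunit genes 20 were higher and 0 lower at an adjusted p under 0.05, with a median log2 fold change of 0.30, and 10 were higher without replicate 4 at 14 weeks. Rpl28, a protein that the ribosome of budding yeast lacks, had the smallest p of all members. Its values were 11.96, 11.95, 11.96, 12.02 and 11.94 at 96 weeks, against 11.42, 11.41, 11.37 and 11.31 at 14 weeks. Both groups were tight, and the log2 fold change was 0.59 (SE 0.044, limma adjusted p = 0.00036). Rpl8, a universally conserved protein near the site where the peptide bond forms, had values of 10.40, 10.33, 10.29, 10.25 and 10.13 at 96 weeks, against 9.65, 9.61, 9.65 and 9.16 at 14 weeks. It rose by 0.76 (SE 0.10, limma adjusted p = 0.0054), and replicate 4 stood below the other 14 week old kidneys. Rpl36, a large subunit protein of eukaryotes, had values of 10.71, 10.68, 10.77, 10.83 and 10.62 at 96 weeks, against 10.16, 10.18, 10.10 and 9.80 at 14 weeks. The rise was 0.66 (SE 0.083, limma adjusted p = 0.0041). Rpl37a, a zinc-binding protein, had values of 12.34, 12.31, 12.41, 12.40 and 12.31 at 96 weeks, against 11.92, 11.89, 11.89 and 11.56 at 14 weeks. It rose by 0.54 (SE 0.075, limma adjusted p = 0.0057), and of the 8 members at a mean level of 12 or more it had the largest difference. The other 16 large subunit genes that passed rose by between 0.21 (Rpl23a) and 0.56 (Rpl38).

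Among the 20 small subunit genes, 14 were higher and 0 lower, with a median log2 fold change of 0.44. Rps10, a protein of the subunit's head, had values of 11.19, 11.34, 11.41, 11.47 and 11.30 at 96 weeks, against 10.68, 10.70, 10.70 and 10.27 at 14 weeks. The groups were apart in all kidneys, replicate 4 again stood below the other young ones, and the rise was 0.75 (SE 0.097, limma adjusted p = 0.0046). Rps14, which lies on the platform of the subunit, was named after its values had been seen and rose by 0.70 (SE 0.12, limma adjusted p = 0.011). Rps9, at the channel where the mRNA enters, had values of 11.76, 11.70, 11.77, 11.79 and 11.57 at 96 weeks, against 11.26, 11.31, 11.23 and 11.09 at 14 weeks. It rose by 0.50 (SE 0.063, limma adjusted p = 0.0046). Rps18, a protein of the head, had values of 11.59, 11.61, 11.63, 11.69 and 11.48 at 96 weeks, against 11.16, 11.23, 11.08 and 11.01 at 14 weeks. Its rise was 0.48 (SE 0.062, limma adjusted p = 0.0046). Both were without overlap, as were Rps29, a zinc-binding protein that rose by 0.51 (limma adjusted p = 0.0055), and the universally conserved Rps13, which rose by 0.55 (limma adjusted p = 0.0057). Rps4x, the brightest of all members, had values of 13.07, 13.06, 13.15, 13.09 and 13.02 at 96 weeks, against 12.88, 12.88, 12.93 and 12.69 at 14 weeks. The groups did not overlap, the rise was 0.23 (SE 0.058, limma adjusted p = 0.041), and the adjusted p was between 0.056 and 0.086 when any single array was left out. Rpsa, which is also known as a laminin receptor, had values of 10.09, 9.77, 9.94, 10.20 and 9.74 at 96 weeks, against 9.68, 9.76, 9.61 and 9.57 at 14 weeks. The groups of Rpsa overlapped by 1 kidney and the log2 fold change was 0.30 (SE 0.097, limma adjusted p = 0.091).

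**Figure D2:**
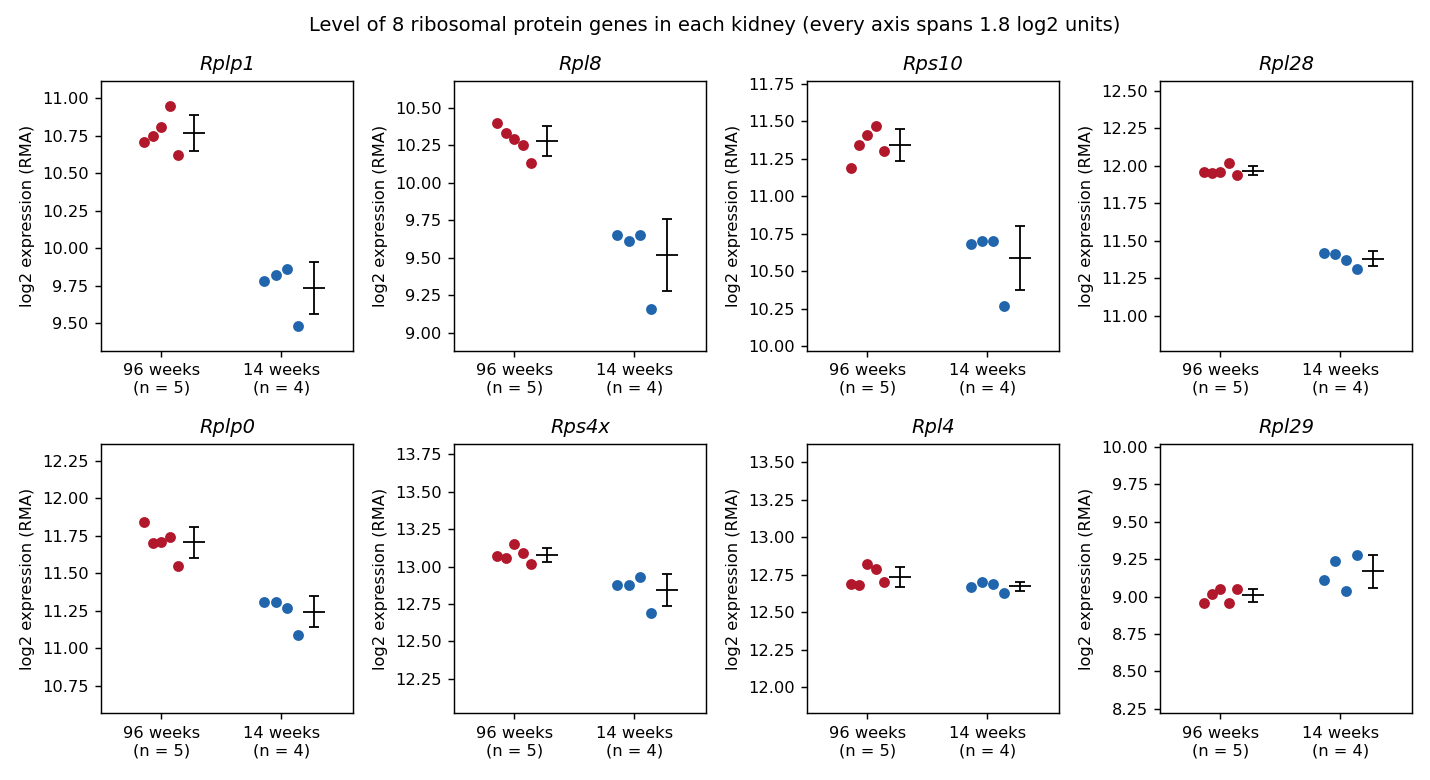
Level (RMA, log2) of 8 ribosomal protein genes in each kidney, at 96 weeks (red, n = 5) and at 14 weeks (blue, n = 4), with the mean and 1 SD. Every axis spans 1.8 log2 units. The groups are apart for Rplp1, Rpl8, Rps10, Rpl28, Rplp0 and Rps4x and overlap for Rpl4 and Rpl29.

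The rise was not uniform, and 22 members did not pass. Among these were several of the brightest probe sets. Rpl4, whose loop lines the tunnel through which the new protein leaves, had values of 12.69, 12.68, 12.82, 12.79 and 12.70 at 96 weeks, against 12.67, 12.70, 12.69 and 12.63 at 14 weeks. Its groups overlapped and its log2 fold change was 0.06 (SE 0.048, limma adjusted p = 0.39). Rpl10, which is added late and allows the subunits to join, had values of 12.80, 12.77, 12.88, 12.85 and 12.81 at 96 weeks, against 12.67, 12.69, 12.69 and 12.65 at 14 weeks. The groups of Rpl10 were apart, but by little (log2 fold change 0.14, SE 0.044, limma adjusted p = 0.075). The methods' t-test, with an adjustment added here (adjusted p = 0.042), put Rpl10 past the threshold. A limma fit with an intensity trend and robust prior (adjusted p = 0.038) did so too. Rps6, the protein that S6 kinases phosphorylate, differed by 0.03 (SE 0.043). Rpl5, which carries the 5S ribosomal RNA, differed by 0.05 (SE 0.051), and Rpl21 by 0.07 (SE 0.046). These last 3 genes were chosen after their values had been seen, and none of them passed in any of 20 alternative settings. Rpl29, also known as a heparin-binding protein, had values of 8.96, 9.02, 9.05, 8.96 and 9.05 at 96 weeks, against 9.11, 9.24, 9.04 and 9.28 at 14 weeks. It was the only member lower at an unadjusted p under 0.05 (log2 fold change -0.16, SE 0.060, limma adjusted p = 0.13). With a brighter probe set that also lists another gene, the value of Rpl29 was 0.15, so that its direction was not settled.

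Of the 6 paralogs and retrogenes 1 passed, and their median log2 fold change was 0.01. Rps27l, a paralog of Rps27 that p53 induces, had values of 8.91, 8.98, 8.97, 9.12 and 8.97 at 96 weeks, against 8.62, 8.55, 8.56 and 8.22 at 14 weeks. It rose without overlap by 0.50 (SE 0.082, limma adjusted p = 0.010). Rpl3l of skeletal muscle and heart, and Rpl10l and Rpl39l of the testis, were the 3 dimmest members, at mean log2 levels of 4.88, 4.31 and 3.33 over all arrays. Below a level of 6, 0.195% of the other genes were higher and 2.34% lower. Their log2 fold changes were -0.07, -0.17 and -0.04, and those of Rpl3l and Rpl39l were 0.02 and 0.04 after a repeated quantile normalization. Rps4l, the retrogene partner of Rps4x, had a log2 fold change of 0.06 (SE 0.076), and Rpl32l of 0.26 (SE 0.079, limma adjusted p = 0.073). In the pairs with both partners among the members, Rps4x passed and Rps4l did not, and neither Rpl10 (0.14) nor Rpl10l (-0.17) passed. The differences within pairs were not tested.

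Of 80 genes listed for the standard cytosolic ribosome, 53 were members, and most of the others could be read in part. Fau, which encodes Rps30 fused to a ubiquitin-like protein, falls outside the naming rule and rose by 0.55 (limma adjusted p = 0.0032), while Rps3a1 had a log2 fold change of 0.10 (limma adjusted p = 0.44). A further 15 genes had only probe sets that list other genes as well. All 15 had a log2 fold change above 0, with a median of 0.31. Their adjusted p was taken over all 35557 probe sets, not over genes as for Fau and the members. By it 8 were higher and 0 lower, against 3.41% of all probe sets higher and 1.78% lower. Rps27 (0.83, limma adjusted p = 0.0049) and Rps16 (0.54, limma adjusted p = 0.012) had the largest differences among them and were chosen for that, and since these probe sets name copies of the same gene, the share of each copy is uncertain. The other genes of the list were not analysed here.

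Ribosomal protein genes have many near-identical processed pseudogenes, and a probe set can read more than 1 copy. The 59 genes were covered by 215 probe sets with a single symbol, up to 14 for Rps12, and 210 of them had a log2 fold change above 0. At an adjusted p under 0.05 over 35557 probe sets, 126 were higher and 0 lower (58.6%, against 3.41% of all probe sets higher). In 38 of 39 genes with several probe sets all of them had a positive log2 fold change, and in 21 genes all of them passed. Some members that passed over genes did not pass on the same brightest probe set over all probe sets. These were Rps20, Rpl41, Rpl23, Rpl10a, Rpl6, Rpl23a, Rps4x and Rps15 (limma adjusted p between 0.052 and 0.063). The probe sets of a gene are not independent measurements. The 3 of Rpl41 had the same mean level and log2 fold change, as did several of Rps12. Both probe sets of Rplp1 passed, at 1.03 and 1.16. The 5 probe sets of Rpsa ran between 0.30, for the brightest, and 0.74, for the dimmest, which was the only one that passed. The mean of the 5 gave 0.45 (limma adjusted p = 0.027), so that the call of Rpsa depended on the probe set.

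The probe sets of ribosomal protein genes are bright and the genes are short, and the share of all genes that were higher varied with both. Of the 13 members at a mean log2 level of 10 to 11, 12 were higher (92.3%), against 11.5% of 742 other genes at this level. At 11 to 12, 16 of 19 members were higher (84.2%), against 10.3% of 262 other genes, and at 12 or more 4 of 8 (50%), against 2.33% of 86. Between 8 and 10, 4 of 8 were higher (50%), against 10.3% of 3826, between 6 and 8 1 of 8 (12.5%), against 4.12% of 7260, and below 6 none of 3, against 0.195% of 7703. Across the 59 genes level and log2 fold change were weakly related (Pearson r = 0.27, Spearman rho = -0.03, and r = -0.03 without the 3 genes below 6), where genes of 1 set of arrays are not independent.

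**Figure D3:**
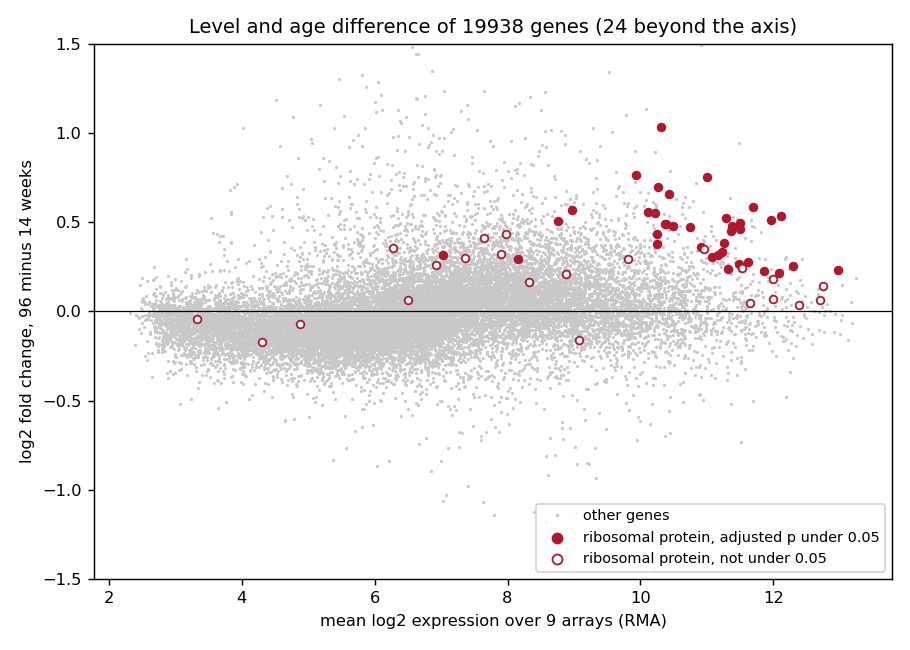
Mean log2 expression over the 9 arrays (x axis) and log2 fold change, 96 minus 14 weeks (y axis), of 19938 genes, of which 24 lie beyond the axis. Ribosomal protein genes are red, filled where the adjusted p was under 0.05, and at a level of 10 to 12 all of them lie above 0 while the other genes spread around it.

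The span of a gene from start to end (GRCm38.p6 annotation) was between 592 and 11774 bases for the members, with a median of 3175. Among protein-coding genes at a level of 8 or more, short genes were higher at 96 weeks more often than long ones. Of genes spanning up to 4000 bases, 23 of 29 members were higher (79.3%, median log2 fold change 0.38), against 94 of 292 other genes (32.2%, median 0.22). At 4001 to 8000 bases it was 12 of 16 members (75%, median 0.36), against 98 of 434 others (22.6%, median 0.15), and at 8001 to 16000 bases 1 of 3 members, against 14.5% of 711 others. No member spanned more, and the share among other genes was 10.3% at 16001 to 32000 bases, 6.13% at 32001 to 64000 and 2.6% above 64000, where the median was 0.00. In both bins that held over 10 members, the share among the members was above that among other genes of like span. The part of gene span in the result was not tested further.

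Start sites were looked at because the TOP run is the feature that ribosomal protein mRNAs share. RefSeq windows around annotated transcript starts (GRCm38.p6) were found for 47 of 59 members, 56 windows in all. A run of at least 8 C or T letters that touched the start stood in 14 windows (25%), against 5.32% of 32851 windows of all genes. CCGGAAG, a core motif of ETS factors, was looked for on both strands, where it reads CTTCCGG on the other. This search covered the whole window, so that a hit need not lie at the start. The motif stood in 19 member windows (33.9%), against 8.86% of all. The 2 searches can overlap in a few letters. The 30 bases around the start are shown for 5 of the genes that rose and had such a run, and for Rps6, which had a run and a log2 fold change of 0.03, with the run in capitals and the annotated start at base 16.
Rps10, chr17:27635230-27635259, minus strand: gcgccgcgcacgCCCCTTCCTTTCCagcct
Rpl28, chr7:4792950-4792979, plus strand: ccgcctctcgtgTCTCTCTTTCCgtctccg
Rpl38, chr11:114668565-114668594, plus strand: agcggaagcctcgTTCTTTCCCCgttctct
Rps9, chr7:3704026-3704055, plus strand: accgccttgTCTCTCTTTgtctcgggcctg
Rps18, chr17:33955651-33955680, minus strand: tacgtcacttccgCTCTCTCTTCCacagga
Rps6, chr4:86857353-86857382, minus strand: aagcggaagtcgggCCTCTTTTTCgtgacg
The run did not separate the members that rose from those that did not. Of 14 members with a run of at least 8 letters 8 were higher (median log2 fold change 0.42), and of 33 with a shorter run 20 were higher (median 0.30). With CCGGAAG 12 of 18 were higher (median 0.37), and without it 16 of 29 (median 0.32). A start that the annotation places a few bases away would hide a run.

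Several ribosomal protein genes carry small nucleolar RNAs (snoRNAs), guides of ribosomal RNA modification, in their introns. Of 51 snoRNAs measured, 11 lay inside 9 members. None of the 11 was higher and 1 was lower at an adjusted p under 0.05 (7.84% of all 51 were higher and 5.88% lower), and their median log2 fold change was 0.04. Their mean log2 levels at 14 weeks ran between 4.64 (Snord15a) and 9.15 (Snord42a), so that some were dim. The RNA was purified with the RNeasy kit, and how much of such short RNAs it kept was not checked here. Snord42a, which lies in Rpl23a and was chosen after its values had been seen, had values of 8.14, 8.36, 8.36, 8.31 and 8.58 at 96 weeks, against 9.27, 9.18, 8.97 and 9.21 at 14 weeks. It fell without overlap by 0.80 (SE 0.090, limma adjusted p = 0.0029), while its host Rpl23a rose by 0.21 and Snord42b, in the same host, had a log2 fold change of 0.30 (limma adjusted p = 0.14). Snord33, in Rpl13a, rose by 0.49 (limma adjusted p = 0.020).

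Lists of genes that work with the ribosome had smaller median differences. Of 14 elongation and release factors 4 were higher and 0 lower, with a median log2 fold change of 0.18. These were Eef2, which moves the ribosome along the mRNA (0.30, limma adjusted p = 0.015), the exchange factor subunits Eef1d (0.34, limma adjusted p = 0.018) and Eef1b2 (0.33, limma adjusted p = 0.030), and Eif5a (0.36, limma adjusted p = 0.021). Eif5a did not pass when any of the 14 week old arrays was left out (adjusted p up to 0.055), nor Eef1b2 without replicate 1, 2 or 3 at 96 weeks or replicate 2 or 3 at 14 weeks (adjusted p up to 0.061). Of 32 initiation factors 9 were higher and 0 lower (median 0.10). The 3 with the smallest p were subunits of eIF3, the complex that prepares the small subunit. Eif3k rose by 0.70 (SE 0.076, limma adjusted p = 0.0028), Eif3i by 0.35 and Eif3d by 0.30. Of 17 TOP mRNAs that do not encode ribosomal proteins 6 were higher and 0 lower (median 0.19), among them Eif3k, Eef2 and Eef1d, which the lists above hold too. After a repeated quantile normalization the median of the initiation factors was 0.03. With the methods' t-test 3 initiation factors, 1 elongation factor and 3 of these TOP mRNAs were higher, and leaving out single arrays gave 4 to 8, 2 to 4 and 3 to 6, with the fewest without replicate 2 at 14 weeks. Of 4 snoRNA host genes, Snhg5 (0.29), Eif4a2 (0.07) and Gas5 (0.06) among them, none passed.

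Lists of genes that build ribosomes, and of their regulators, also had medians below those of the subunits. Of 58 genes of ribosome biogenesis 9 were higher and 0 lower (median 0.08), with the smallest p for Nip7 (0.41) and Rrp1 (0.34) of ribosome assembly and for Mrto4 (0.30), which prepares the site of the stalk. Of 29 genes of RNA polymerases I and III, which make ribosomal RNA and tRNA, 3 were higher and 1 lower (median 0.05, and -0.03 after a repeated quantile normalization). Polr1c (0.42) and Polr1d (0.37), which both enzymes share, and Znrd1 (0.24) of polymerase I rose, and Polr3e of polymerase III averaged 9.56 ± 0.72 at 96 weeks and 10.99 ± 0.19 at 14 weeks (SD, n = 5 and 4; log2 fold change -1.44, limma adjusted p = 0.027). Polr3e did not pass without replicate 5 at 96 weeks or without any single 14 week old array (adjusted p between 0.053 and 0.073), and Znrd1 passed only with replicate 3 at 96 weeks as the array left out. Of 28 genes of mTORC1, S6 kinase, Larp1 and Myc 2 were higher and 0 lower (median 0.07). These were Lamtor4 (0.33), a part of the lysosomal anchor of mTORC1, and the GTPase Rragc (0.24), which missed the threshold without most single arrays (adjusted p up to 0.10), while Lamtor1 had 0.33 (limma adjusted p = 0.068, and 0.040 without replicate 2 at 14 weeks). Of 75 genes of the mitochondrial ribosome 16 were higher and 0 lower (21.3%, median 0.16), with the smallest p for Mrpl23 (0.70, limma adjusted p = 0.0011), Mrps18a (0.40) and Mrpl36 (0.44). The mitochondrial list had 9 genes higher and a median of 0.07 after a repeated quantile normalization, 9 higher after cyclic loess, 4 with the methods' t-test and 6 to 16 with single arrays left out, the fewest without replicate 3 or 4 at 14 weeks. The biogenesis list had 5 higher after either scaling, 3 with the methods' t-test and 5 to 8 with single arrays left out, the fewest without replicate 1 at 96 weeks or replicate 2 or 4 at 14 weeks. In limma over all arrays the lists were read against 4.31% of all genes higher and a median of -0.03. The share of all genes higher was 2.43% after a repeated quantile normalization, 2.82% after cyclic loess and 1.37% with the methods' t-test. With single arrays left out it was 1.88% to 3.77%. Differences between lists were not tested.

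**Figure D4:**
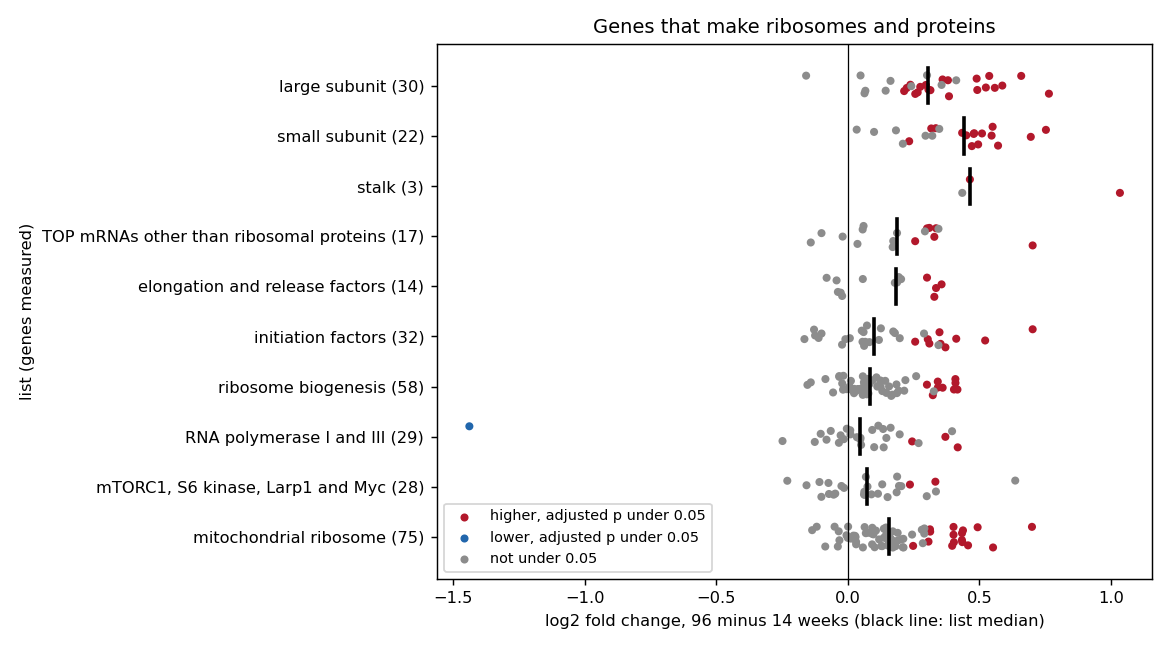
Log2 fold change, 96 minus 14 weeks, of each gene in 10 lists, with the number of genes measured and the median as a black line. The small subunit row holds Fau and Rps3a1 besides the 20 members. Medians are 0.30, 0.44 and 0.46 for the large subunit, the small subunit and the stalk and at most 0.19 in the other rows, and the only gene lower at an adjusted p under 0.05 is Polr3e.

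The means of macrophage markers and of B and plasma cell markers were also higher in every 96 week old kidney than in any 14 week old one. Those of T and NK cell markers overlapped. Of 10 macrophage markers 3 were higher and 0 lower (median 0.75, Lyz2, Csf1r and Tyrobp), and all 10 had a log2 fold change above 0. Their summed linear level ran between 2004 and 4879 at 96 weeks and between 1261 and 1448 at 14 weeks. Of 9 B and plasma cell markers 2 were higher (Jchain and Igha), with a summed level of 1715 to 3787 at 96 weeks and 640.8 to 667.6 at 14 weeks. Of 9 T and NK cell markers none passed, and the summed level was 494.4 to 2323 at 96 weeks and 541.5 to 573.9 at 14 weeks. None of 10 proximal tubule markers, 10 of the thick ascending limb and distal nephron, 7 of fibroblasts, 6 of endothelium, 5 of adipocytes and 2 of red cells passed. The proximal tubule markers, summing to 26880 to 33820 at 96 weeks and 29510 to 31020 at 14 weeks, were bright in all 9 kidneys, as the labelled tissue has them. From replicate 1 to 5 at 96 weeks the centred macrophage means were 0.236, -0.189, 0.846, 1.083 and -0.008. Those of B and plasma cell markers were 0.743, 0.163, 0.772, 1.324 and 0.188. Both lists put these kidneys in the same order as the ribosomal protein means, with replicate 4 the highest and replicate 2 the lowest. For T and NK cell markers replicates 1 and 3 changed places, and at 14 weeks the orders differed from that of the ribosomal protein means. Replicates 2 and 5 at 96 weeks had the lowest macrophage means of their group. Their ribosomal protein means (0.096 and 0.111) lay above those of all 14 week old kidneys, as did their macrophage means (-0.571 to -0.404 at 14 weeks). With replicates 3 and 4 at 96 weeks, the kidneys with the most macrophage marker RNA, both left out, 23 of 59 genes were higher and 0 lower, against 3.71% of all genes higher, and the median was 0.29. Replicate 1, which this fit kept, had centred means of 0.743 for B and plasma cell markers and 0.573 for T and NK cell markers. The part of white blood cells in the result was not tested further.

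**Figure D5:**
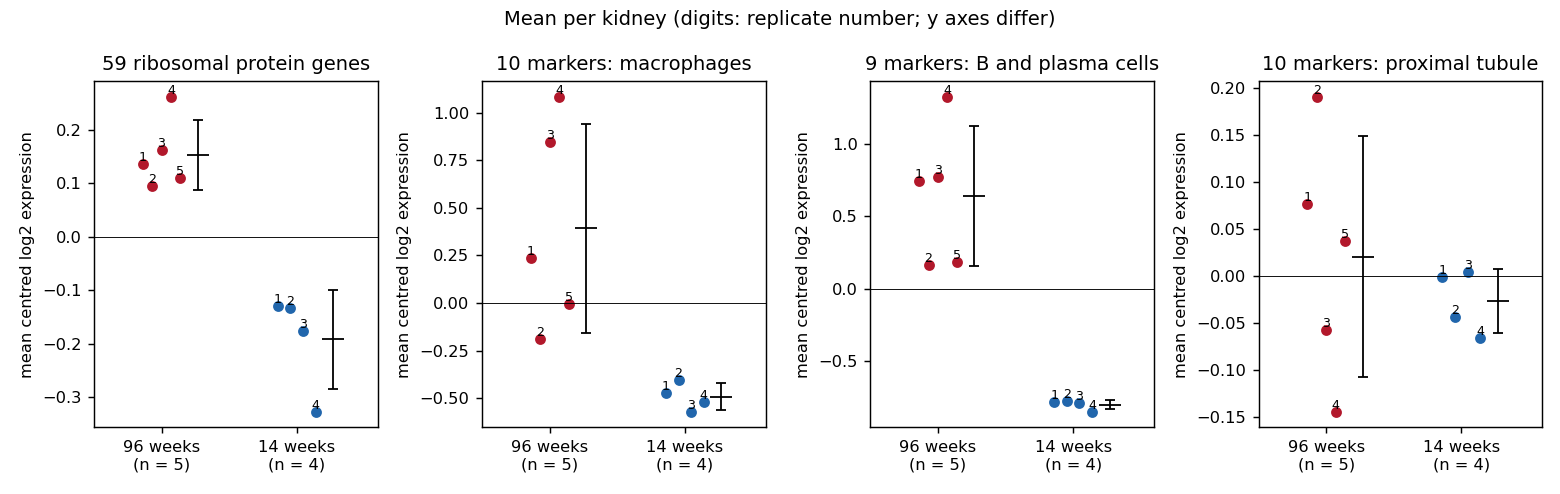
Mean of centred log2 expression per kidney over the 59 ribosomal protein genes and over the markers of macrophages, of B and plasma cells and of the proximal tubule, with 1 SD as a bar and the replicate number at each point. The axes differ in scale. In the first 3 panels all 96 week old kidneys lie above all 14 week old kidneys, and in the proximal tubule panel the groups overlap.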

How the data were processed

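Kidney RNA of 9 mice was measured with 1 array per mouse, 5 at 96 weeks and 4 at 14 weeks (the methods name 5 mice per age). The deposited log2 values, 1 per probe set and array for 35557 probe sets, were made by the authors with Affymetrix Power Tools (1.12.0), using RMA with quantile normalization. The sources used here do not give the genome build or scan dates.

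By GEO's platform annotation 21789 probe sets had a single symbol, 1621 had more than 1 and 12147 had none. The brightest probe set stood for each of 999 genes with more than 1, which left 19938 genes. The age difference was fitted in R 4.3.3 by limma 3.58.1, using lmFit and eBayes, with Benjamini-Hochberg adjustment over all genes and no filter on dim genes. Single probe sets, and genes with only probe sets of several symbols, were adjusted over all probe sets. Sequences came from RefSeq tables (GRCm38.p6), read with Python 3.11.15. Members and lists were chosen with earlier results of these data known. The members named were the 10 with the smallest p past the threshold, the 3 highest and 3 lowest, the 3 brightest and 3 dimmest, the stalk genes, Rpsa, Rps4x and paralog pairs, and for a list the 3 genes with the smallest p and all that passed where at most 5 did. Others, such as Rpl38 and Rpl23a, were named after their values were seen.

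On simulated arrays with 200 of 19938 genes changed, 31.3% were recovered at a log2 change of 0.3, 74.6% at 0.5 and 98.5% at 1, with 9 false calls. The simulation drew genes at any level and with independent noise, so that these shares need not hold for the members. Arrays correlated at 0.982 to 0.997, and their number limits the precision. Alternatives covered the test, scaling, probe sets, array weights, dim genes, the replicate number as a block and arrays left out. The p of the methods' t-test, which the authors left unadjusted, was adjusted here by Benjamini-Hochberg over all genes.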

Additional observations from a re-analysis of the deposited data

Results flagged for a closer look

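Within the age groups of 23 named members, 46 groups in all, 5 had a kidney that stood far from the others of its group. Chance flags about 1 in 20 independent groups, but these groups share arrays and are not independent, so that the 2 rates cannot be compared. In replicate 4 at 14 weeks Rps10 (10.27, next value 10.68), Rpl8 (9.16, next value 9.61) and Rpl37a (11.56, next value 11.89) stood below the other 14 week old kidneys. In replicate 4 at 96 weeks Rpl28 stood above its group at 12.02, with the next value at 11.96. In replicate 2 at 96 weeks Rpl39l, the dimmest member, stood above its group at 3.52, with the next value at 3.29. With each array left out in turn, Rps10, Rpl8, Rpl37a and Rpl28 were higher at an adjusted p under 0.05 in every case.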

How the results depend on the processing

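No ribosomal protein gene was lower at an adjusted p under 0.05 in any of 20 alternative settings, and the median log2 fold change of the members stayed between 0.28 and 0.36. The number of members higher was 37 in limma over all arrays. It was 19 with the methods' t-test (273 genes higher and 94 lower among all genes). The authors left the p of this test unadjusted, and it was adjusted here as in the limma fit. At their threshold of 1.5-fold and an unadjusted p under 0.05, this t-test gave 6 members, against 0.983% of all genes upwards. The number at an adjusted p under 0.05 was 23 after a repeated quantile normalization (484 higher and 505 lower, so that 48.9% of calls were higher, against 64.2%), and 28 after cyclic loess (562 higher among all). With replicates 3 and 4 at 96 weeks left out it was 23 (739 higher and 286 lower among all). Leaving out each array in turn gave 23 to 30 members higher, the fewest without replicate 4 at 14 weeks, and 374 to 751 genes higher and 154 to 384 lower among all. The members past 1.5-fold then numbered 3 to 8, the fewest without the same array. In every setting 12 members were higher, and 16 were higher in none. The same counts were not made over all genes, so that these have no background to be read against. The median of the polymerase I and III list turned to -0.02678 after a repeated quantile normalization and -0.005215 after cyclic loess. The list of measured paralogs held Rpl7l1 (0.39, limma adjusted p = 0.039) where the paralog members above held Rpl32l. Of this list 2 genes were higher. Its median (0.01) was -0.0198 without replicate 3 at 14 weeks and up to 0.036 without another array. It was 0.05 and 0.06 after the 2 scalings. With the filter on dim genes, which leaves out the dimmest genes of the list, it was 0.39. After a repeated quantile normalization the medians were 0.029 for initiation factors, 0.13 for elongation factors, 0.0295 for biogenesis, 0.0018 for the mTORC1 list and 0.071 for the mitochondrial ribosome, and after cyclic loess 0.061, 0.17, 0.053, 0.028 and 0.10. Of 917 alternative values for single named genes, 835 were on the same side of the threshold, 76 no longer passed and 6 newly passed. No gene that passed took the opposite sign. The 835 include genes that did not pass and changed sign in some settings, such as Rpl29, Rpl3l and Rpl39l. Where no cause is named here, the cause was not tested.

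The labels do not say whether the replicate numbers pair the kidneys. The deviations of same-numbered kidneys correlated at 0.076, 0.021, -0.037 and 0.012. Kidneys of different numbers were not compared, so that this cannot decide whether a pairing existed. With the replicate number as a block, which leaves out replicate 5 at 96 weeks, 12 members were higher, and 279 genes were higher and 89 lower among all. Signal over background was not used here, so that dim members could not be told from absent ones. On the simulated arrays, where fewer genes changed than were called in the data, most changes of 0.3 were missed.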
